A study of Mus musculus with 24 samples.

Results

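Integrins are receptors that hold cells to the extracellular matrix, each made of an alpha and a beta subunit that pair before they reach the cell surface. The RNA of 10 integrin subunits was followed over 24 samples of MC38, a mouse colorectal cancer cell line from C57BL/6 mice, in a table of 52636 genes. They were chosen by name and are the alpha subunits Itga1, Itga2, Itga3, Itga5, Itga6 and Itgav and the beta subunits Itgb1, Itgb3, Itgb4 and Itgb5. All 10 were in the table, and 8 of them had a median of at least 10 normalized counts. A normalized count is a read count that the study scaled by a single factor per library and rounded to a whole number. Itgb1 is the shared partner of many alpha subunits, Itga1 and Itga2 with Itgb1 bind collagens, Itga3 or Itga6 with Itgb1 bind laminins, and Itga5 with Itgb1 binds fibronectin. Itgav pairs with Itgb1, Itgb3 or Itgb5 and binds matrix proteins such as vitronectin, and Itgb4 pairs with Itga6 in the laminin receptor of hemidesmosomes. Integrin subunits are glycoproteins, and their sugars are known to bear on their activity. Here the RNA was measured, not the protein or its glycans.

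The samples came from 8 lines with 3 samples each. MC38-WT was unmodified and grown without puromycin, at passages 7 to 9. All other lines were grown with puromycin. MC38-MOCK#1 (given a CRISPR/Cas9 construct without a target), MC38-COSMC KO (a knockout of C1galt1c1, the gene of the T-synthase chaperone COSMC, called MC38-Tnhigh in the study), MC38-CMAS KO (a knockout of Cmas, which activates sialic acid) and MC38-DKO (both targets) were harvested at passages 4 to 6. MC38-MOCK#2 and the line labelled MC38-FUT9 were at passages 6 to 8, and the line labelled MC38-FUT4 was at passages 7, 8 and 7. These 3 lines were made with CRISPR-dCas-VPR, a system that switches on a gene at its own promoter. The study describes MC38-COSMC KO as cells sorted in bulk after transfection, not as single clones, and the samples of each line are harvests of that line at the stated passages. The p-values therefore measure the spread between harvests, not between lines made independently.

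The totals of normalized counts lay between 10911849 and 12263307 per sample, from an estimated 6760000 to 16230000 reads. C1galt1c1 had 124 to 163 normalized counts in MC38-COSMC KO and 220 to 251 in MC38-MOCK#1, and in MC38-DKO its 166 to 206 overlapped with the 152 to 215 of MC38-CMAS KO. Cmas had 93 to 126 in MC38-CMAS KO, 122 to 142 in MC38-DKO and at least 272 in every other sample. Fut4 had 0 to 1 in the line labelled MC38-FUT4 and 0 in every other sample, while Fut9 had 171 to 209 there, 641 to 955 in MC38-FUT9 and at most 7 elsewhere. The RNA of the line labelled MC38-FUT4 thus goes against its label, and every result from it below is a result of a line with Fut9 RNA and next to no Fut4 RNA. None of 10 colon epithelium markers had a median above 3 normalized counts, with a summed level of 3 to 51 in all lines other than that labelled MC38-FUT4, where it was 266 to 477 and nearly all Krt20. Of 6 mesenchymal markers 5 were above 3, among them Vim with 19787 to 33315, while summed levels were 20 to 70 for 6 leukocyte markers (Cd3e at 0), 0 to 19 for 4 endothelial markers and 8 to 67 for 4 platelet markers. In such bulk samples, fewer cells of a type and less RNA per cell cannot be told apart.

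**Figure D1:**
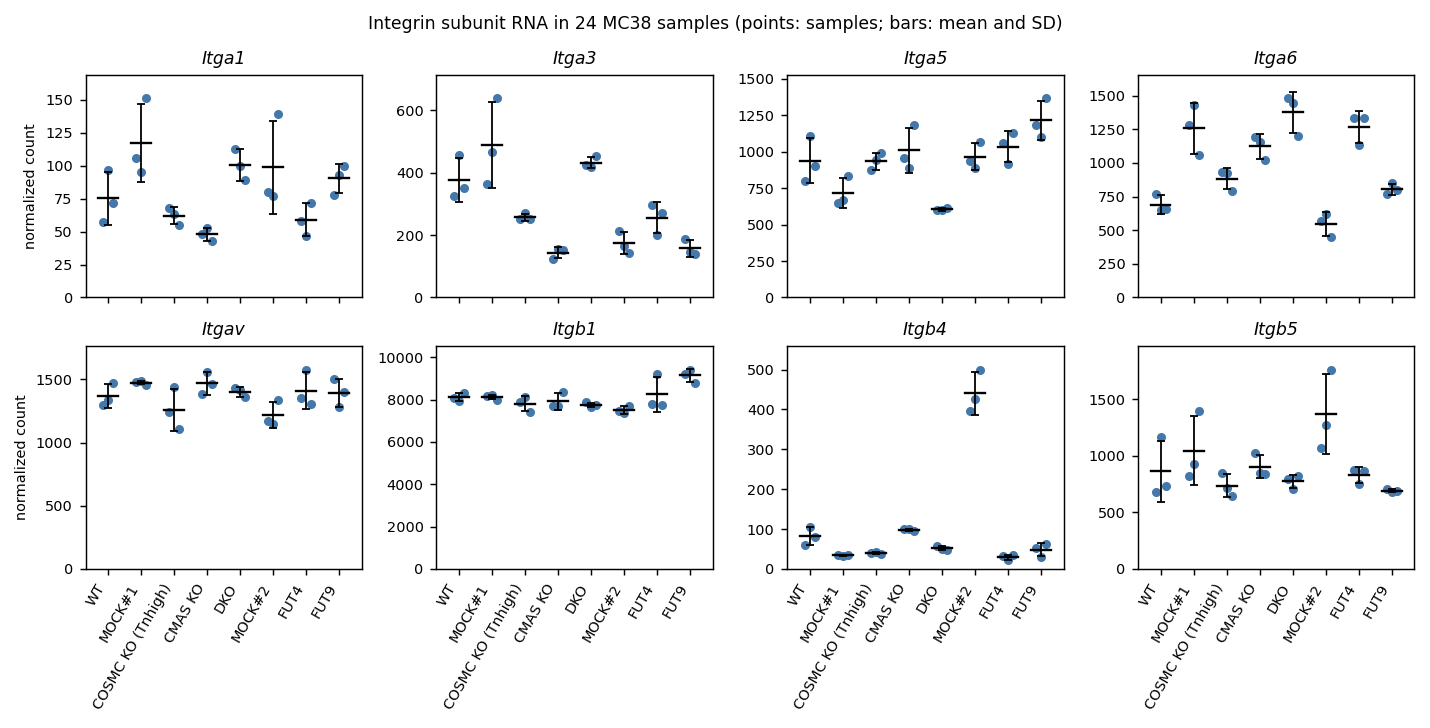
Normalized counts of 8 integrin subunits by line. Each point is a sample, the horizontal line is the mean and the bar its SD over 3 samples, and each panel has its own axis from 0; Itga2 and Itgb3, at 0 to 6 in every sample, are left out. Itgb4 in MC38-MOCK#2 lies between 396 and 499 and at most at 105 in all other samples.

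The levels of the subunits were compared per kilobase of exon, since the genes differ in length. Itgb1 stood highest with a median of 1940 normalized counts per kb over the 24 samples, and was above Itgb5 in 24 of 24 samples, by a median ratio of 8.01. Itgb5 (246 per kb) and Itga5 (209 per kb) followed, with Itgb5 above Itga5 in 18 of 24 samples, so this order did not hold in every sample. Itga5 was above Itgav (130 per kb) in 24 of 24 samples, by ratios of 1.02 to 2.35, and Itgav was above Itga6 (108 per kb) in 16 of 24. Itga3 (45.6 per kb), Itgb4 (7.34 per kb) and Itga1 (4.17 per kb) were lower. Itga2 was listed at 0 in 20 of 24 samples and at 1 in the rest, and Itgb3 had 0 to 6 normalized counts. At this depth their levels could not be compared between lines. Where they passed the filter on low values they are counted among the subunits tested. The only fold given for them is that of Itgb3 in MC38-FUT9. The platelet integrin partner of Itgb3, Itga2b, had 6 to 63.

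Itgb1 made up 79.4% ± 3.7 (SD, n = 3) of the beta subunit RNA per kb in MC38-MOCK#2 and 90.8% ± 0.58 (SD, n = 3) in MC38-FUT9, with all other lines between these. The summed beta level was 3.77 to 5.09 times the summed alpha level by line. The alpha subunits were divided more evenly. Itgav stayed between 21.7% and 25.1% of the alpha RNA in every line. Itga5 was 25.3% ± 1.2 (SD, n = 3) in MC38-DKO, 28% ± 2.2 (SD, n = 3) in MC38-MOCK#1 and between 38.2% and 50.5% in the other 6 lines. Itga3 was at 14.7% ± 3.1 (SD, n = 3) in MC38-MOCK#1, 14% ± 1 (SD, n = 3) in MC38-DKO and 12.9% ± 1.2 (SD, n = 3) in MC38-WT, against 4.51% to 8.84% in the other 5 lines. In MC38-WT the share of Itga5 was high as well, at 41.3% ± 3.1 (SD, n = 3). Both are shares of the same alpha sum, so a larger share of one subunit lowers that of the others.

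**Figure D2:**
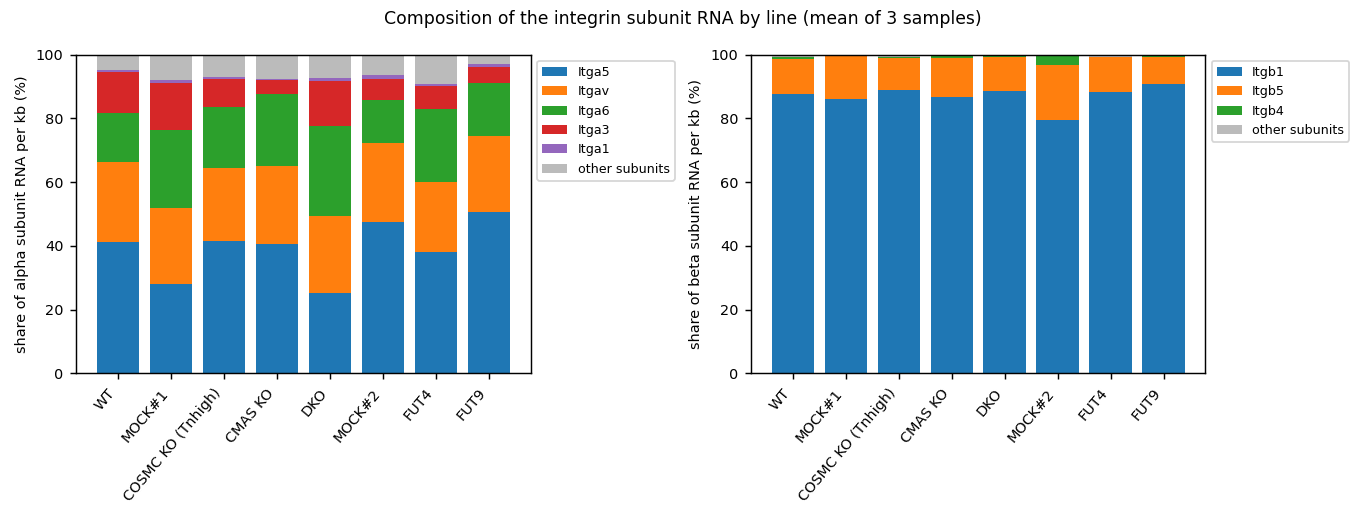
Share of each subunit in the summed alpha (left) or beta (right) subunit RNA per kb, in percent, as the mean of 3 samples per line; grey holds all subunits that are not named. Itga5 takes 25.3% in MC38-DKO and 50.5% in MC38-FUT9, while Itgb1 is at 79.4% or more of the beta RNA in every line.

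In GRCm38, the build of the deposited table, Itga1 lies on the minus strand at chr13:114953096-115101964 next to Itga2 at chr13:114833081-114932100, Itga3 (minus) at chr11:95044474-95076801, Itga5 (minus) at chr15:103344286-103366763, Itga6 (plus) at chr2:71745616-71858416 and Itgav (plus) at chr2:83724397-83806916. Of the beta subunits, all on the plus strand, Itgb1 lies at chr8:128685654-128733200, Itgb3 at chr11:104608000-104670476, Itgb4 at chr11:115974709-116008412 and Itgb5 at chr16:33829665-33949153. Exons of 3 of the 10 overlap those of another gene, over 3.68% of the exon length in Itga1, 5.9% in Itgav and 7.66% in Itgb4. The counting of the study left out reads that fall on several genes. In Itgav and Itgb4 the other gene is antisense, and whether the counting used strand is not given in the sources used here.

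Itga1, Itga3 and Itga5 were called in tests among the CRISPR/Cas9 lines given below while Itgb1 differed little, so the sequence just before the start of these 4 genes is shown. RefSeq promoter windows (GRCm38.p6) matched 7 of the 10 subunits. Itga6, Itgb3 and Itgb4 were not matched. The windows hold 250 bases before the RefSeq start, and for Itga3 the 163 bases that lie outside the gene as the deposited table has it are printed. All 4 are written 5′ to 3′ on the strand of the gene, with capitals at each GC box, the letters GGGCGG on either strand. The Itga1 window is at chr13:115101965-115102214 (minus strand), that of Itga3 at chr11:95076802-95076964 (minus strand), that of Itga5 at chr15:103366792-103367041 (minus strand) and that of Itgb1 at chr8:128685404-128685653 (plus strand).
Itga1: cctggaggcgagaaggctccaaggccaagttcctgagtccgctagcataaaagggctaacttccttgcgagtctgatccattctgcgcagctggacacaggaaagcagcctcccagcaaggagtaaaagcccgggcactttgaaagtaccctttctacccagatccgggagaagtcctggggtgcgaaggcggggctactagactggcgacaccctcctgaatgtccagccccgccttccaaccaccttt
Itga3: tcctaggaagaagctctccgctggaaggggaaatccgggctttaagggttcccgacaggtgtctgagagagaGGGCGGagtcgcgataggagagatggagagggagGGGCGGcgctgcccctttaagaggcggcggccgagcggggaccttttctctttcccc
Itga5: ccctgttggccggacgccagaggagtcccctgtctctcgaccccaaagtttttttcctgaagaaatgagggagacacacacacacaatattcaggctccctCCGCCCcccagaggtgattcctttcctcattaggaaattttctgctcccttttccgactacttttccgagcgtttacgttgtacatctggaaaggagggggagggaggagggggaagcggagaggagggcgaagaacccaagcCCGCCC
Itgb1: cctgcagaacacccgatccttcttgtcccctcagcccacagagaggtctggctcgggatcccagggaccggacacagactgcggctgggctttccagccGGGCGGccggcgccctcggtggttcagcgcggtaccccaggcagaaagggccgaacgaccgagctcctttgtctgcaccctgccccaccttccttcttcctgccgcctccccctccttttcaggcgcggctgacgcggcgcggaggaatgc

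A GC box was present in 4 of the 7 windows of 250 bases, those of Itga3, Itga5, Itgb1 and Itgb5, and in 32.7% of 32841 promoter windows of the same length. The printed stretch of Itga3 holds 2, that of Itga5 holds 2 and that of Itgb1 holds 1, while the Itga1 window holds none. The AP-1 letters TGANTCA, which are the same on both strands, were in 0 of the 7 windows and in 6.75% of all windows, and TATAAA on either strand was in 0 of 7 and in 12.4%. All 7 windows had more CpG dinucleotides than the median of 6 for all windows, with 10 in Itga1, 11 in Itga5, 21 in Itgb1 and 22 in the whole Itga3 window. These are matches of letters and say nothing on the binding of a factor.

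MC38-COSMC KO was compared with MC38-MOCK#1 to ask how the loss of COSMC changes the cells. Itga1, Itga3 and Itga6 were lower in MC38-COSMC KO, and none of the 10 chosen subunits was higher past the threshold. The threshold was an adjusted p below 0.05 from limma on log2 of the normalized count plus 1, adjusted over all genes tested. The 3 calls were among 9 subunits that passed the filter on low values. Of all 22172 genes tested 11.6% were called, 6.17% higher and 5.39% lower. The median log2 fold change was -0.23 over the 9 subunits and 0.00 over all genes tested. The study set aside genes that also differed between MC38-WT and its mock line, unless their direction was opposite. Itga6 was called lower in MC38-WT too (-0.85, given below). Itga1 (-0.64, adjusted p = 0.216 by limma) and Itga3 (-0.35, adjusted p = 0.404) lay in the same direction there but were not called. Between MC38-COSMC KO and MC38-WT, Itga1 differed by -0.25 (adjusted p = 0.674) and Itga3 by -0.54 (adjusted p = 0.144), and neither was called. Missing the threshold in MC38-WT therefore does not set Itga1 or Itga3 apart as changes of MC38-COSMC KO alone.

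Itga3 had 250, 270 and 251 normalized counts in MC38-COSMC KO and 364, 465 and 638 in MC38-MOCK#1. The highest knockout sample lay below the lowest mock sample, and the mock samples differed more among themselves than the knockout samples did. This amounts to -0.89 on the log2 scale (standard error 0.187, 95% confidence interval -1.33 to -0.45, adjusted p = 0.0248). Itga1 had 68, 63 and 55 against 106, 95 and 151, also without overlap, and changed by -0.89 (standard error 0.2, adjusted p = 0.0317). Itga6 had 929, 928 and 792 against 1280, 1431 and 1056, and changed by -0.50 (standard error 0.121, adjusted p = 0.0402). The fibronectin receptor subunit Itga5 was at 874, 945 and 990 against 646, 671 and 832. Its groups did not overlap either, but its difference of 0.39 (standard error 0.106, adjusted p = 0.0555) did not pass. Groups without overlap also occurred for Itgav (-0.23) and Itgb4 (0.19), which were not called. The share of all genes without overlap was not taken for this comparison, so it sets no subunit apart. The partner Itgb1 differed by -0.06 with a 95% confidence interval of -0.18 to 0.06.

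These calls were close to the threshold. Itga1 lost its call whichever of the 6 libraries was left out, with log2 fold changes of -1.02 to -0.69. Itga3 remained called without sample 1 of MC38-MOCK#1 (-1.08) or without its sample 3 (-0.68), and lost the call without each of the 4 other libraries (-0.92 to -0.87). Itga6 remained called only without sample 3 of MC38-MOCK#1 (-0.62), and without each of the 5 others it was not called (-0.54 to -0.40). With the median of each chromosome removed from each sample, Itga1 was at -0.71 (adjusted p = 0.0555) and Itga6 at -0.34 (adjusted p = 0.103), and without the mean-variance trend of limma none of the 3 was called. Same-numbered samples of both lines share a passage, and with the replicate number as a block none was called either, at the same fold changes (adjusted p = 0.171 for Itga1, 0.133 for Itga3 and 0.0918 for Itga6). Chromosome 15, which holds Itga5, had a median change of 0.20 over 485 expressed genes, and the 37 expressed genes within 2 Mb of Itga5 had a median of 0.24. Of 5 mesenchymal markers tested 2 were higher (Pdgfrb, 2.35, and Col1a2, 1.23) and 1 lower (Cdh2, -0.51), and their part in the result was not tested.

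MC38-CMAS KO, set against the same 3 samples of MC38-MOCK#1, had less Itga1 and Itga3 and more Itgb4. The called share of all 22024 genes tested was 5.76%, with 3.02% higher and 2.73% lower, and 3 of 9 subunits were called. Itga3 had 123, 157 and 151 normalized counts, below every sample of the other 7 lines except samples of MC38-MOCK#2 and MC38-FUT9, and it changed by -1.73 on the log2 scale (standard error 0.209, adjusted p = 0.00746). Itga1 had 48, 53 and 43, the lowest mean of the 8 lines, and changed by -1.25 (standard error 0.206, adjusted p = 0.0201). Itgb4 had 100, 100 and 95 against 36, 33 and 35 in MC38-MOCK#1. The samples within each line lay close together, and the log2 fold change of 1.48 (standard error 0.141, adjusted p = 0.00391) was called whichever of the 6 libraries was left out (1.44 to 1.51). Itga5 had 956, 890 and 1182 and differed by 0.49 (adjusted p = 0.0886). Itga3 remained called only without sample 1 (-1.92) or sample 3 (-1.52) of MC38-MOCK#1, and was not called without each of the 4 others (-1.80 to -1.62). Itga1 remained called only without sample 3 of MC38-MOCK#1 (-1.05), with -1.39 to -1.17 without each of the others. These lines too share passages 4 to 6 by number, and with the number as a block none of the 3 was called, at the same fold changes (adjusted p = 0.113 for Itgb4, 0.113 for Itga3 and 0.157 for Itga1). The epithelial marker sum was 31 to 51 in MC38-CMAS KO and 3 to 12 in MC38-MOCK#1. Of 5 epithelial markers tested 1 was higher and none lower, with a median of -0.86. Krt20 was the only marker in that list to exceed 8 normalized counts in any sample of the series. Of 5 mesenchymal markers tested 3 were higher (Col1a1, Pdgfrb and Col1a2) and 1 lower (Cdh2), with a median of 1.77. The part of these markers in the result was not tested.

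In MC38-DKO, again set against MC38-MOCK#1, none of 9 subunits was called by limma, with 1 subunit at an unadjusted p below 0.05, a threshold passed by 7.51% of all genes tested, and 0.092% of 21738 genes were called, 0.023% higher and 0.069% lower. Itga3 had 426, 417 and 452, inside the range of MC38-MOCK#1, and differed by -0.14 with a 95% confidence interval of -0.55 to 0.26. Itga1 had 113, 100 and 89 and differed by -0.20 (95% confidence interval -0.65 to 0.25). Itga6 had 1479, 1446 and 1199 and differed by 0.14 (95% confidence interval -0.15 to 0.42). Itga5 had 602, 598 and 615, below every other sample of the series, and differed by -0.23 (adjusted p = 0.679). The subunit with an unadjusted p below 0.05 was Itgb4, with 57, 51 and 48 and a log2 difference of 0.57 (adjusted p = 0.525).

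**Figure D3:**
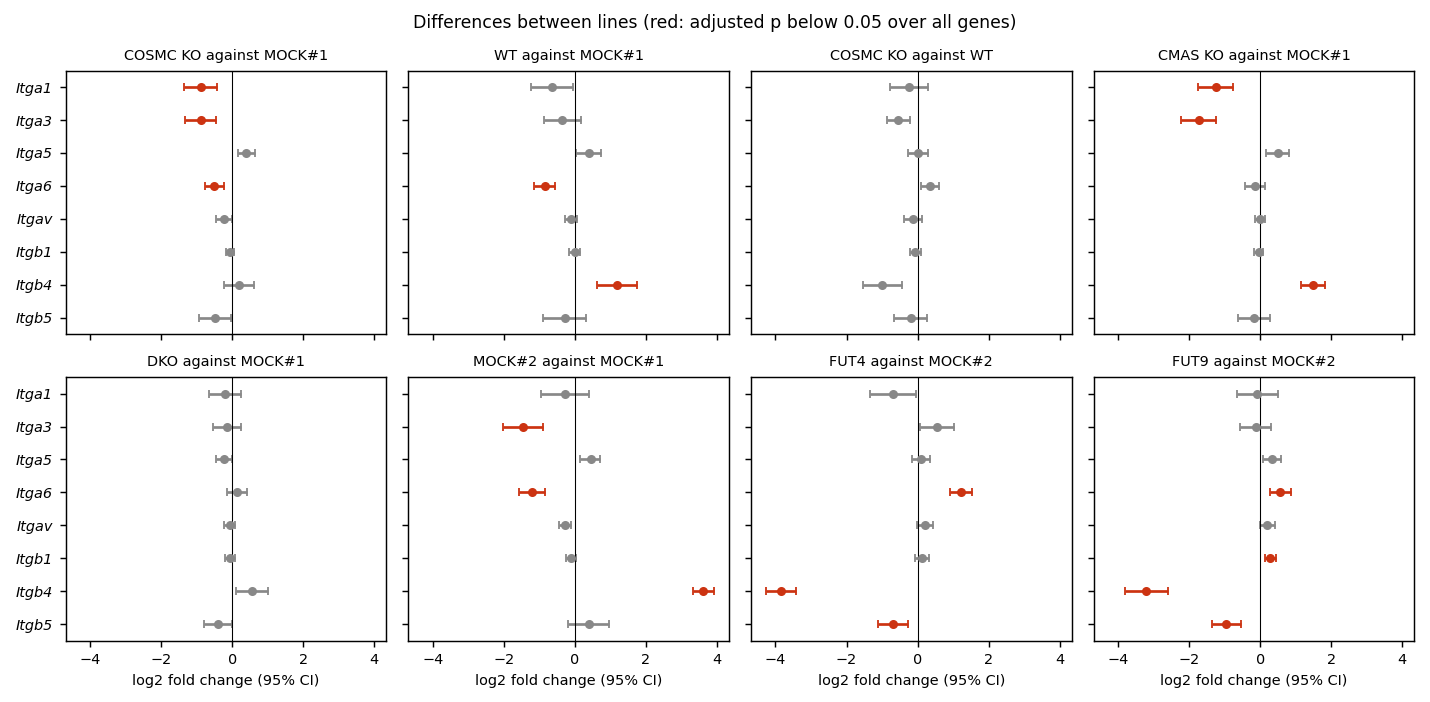
Log2 fold changes of 8 subunits in 8 comparisons, with 95% confidence intervals from limma; red marks an adjusted p below 0.05 over all genes tested. Itgb4 reaches 3.62 in MC38-MOCK#2 against MC38-MOCK#1, and no subunit is red in MC38-DKO against MC38-MOCK#1 or MC38-COSMC KO against MC38-WT.

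Whether the difference with the COSMC label varies with the CMAS label was tested as an interaction over 12 samples. Each combination of labels is a single line, so label and line cannot be told apart. The interaction is MC38-DKO minus MC38-CMAS KO, less MC38-COSMC KO minus MC38-MOCK#1. It was past the threshold for 5 of 9 subunits, 3 with a positive and 2 with a negative value. The background was high, since 22.1% of 21396 genes were called, 11.1% with a positive and 11% with a negative value. Itga3 was lower by 0.89 on the log2 scale with the COSMC label alone and higher by 1.59 where the CMAS label was also present, an interaction of 2.48 (standard error 0.227, adjusted p = 4.11e-06). For Itga1 the values were -0.89 and 1.05, and for Itga6 they were -0.50 and 0.29. Itga5 and Itgb4 ran the opposite way, with 0.39 and -0.73 for Itga5 and 0.19 and -0.91 for Itgb4. All 5 interactions remained called whichever of the 12 libraries was left out. Itgb1 had an interaction of 0.03 with a 95% confidence interval of -0.15 to 0.21, and Itgav one of 0.17 (-0.09 to 0.42). The expressed genes on chromosome 13 as a whole, where Itga1 lies, had a median interaction of 0.30, and those on chromosome 15, where Itga5 lies, one of -0.35. With the median of each chromosome removed all 5 were still called, and likewise with the replicate block. Of 5 mesenchymal markers 1 had a positive (Cdh2, 2.38) and 3 a negative interaction (Pdgfrb, Col1a1 and Col1a2), with a median of -3.53, and their part in the result was not tested.

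**Figure D4:**
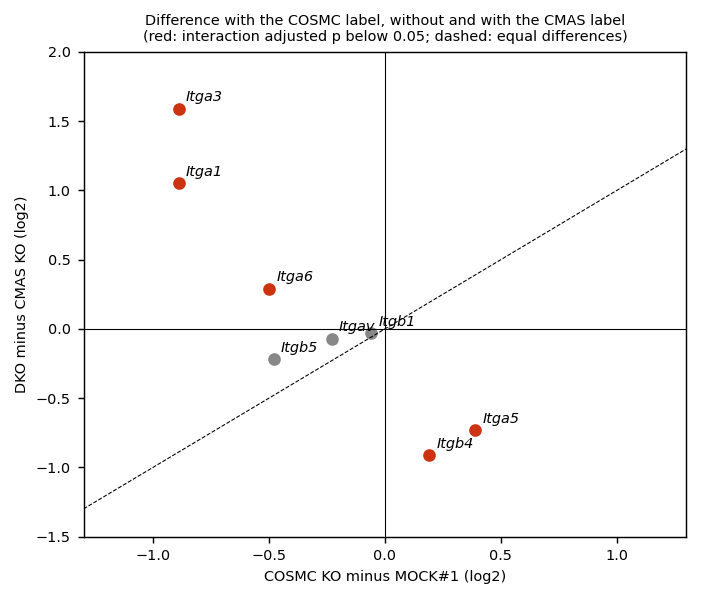
Each point is a subunit, with the log2 difference of MC38-COSMC KO from MC38-MOCK#1 on the horizontal axis and that of MC38-DKO from MC38-CMAS KO on the vertical axis; the dashed line marks equal differences and red an interaction past the threshold. Itga3 (-0.89 and 1.59), Itga1 and Itga6 lie at upper left and Itga5 and Itgb4 at lower right.

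MC38-WT and MC38-MOCK#1 differ by the empty construct and puromycin but also by passage, 7 to 9 against 4 to 6, and these cannot be told apart. Itga6 was lower and Itgb4 higher in MC38-WT, 2 of 9 subunits, with 5.51% of 21621 genes called, 2.7% higher and 2.81% lower. Itga6 had 769, 647 and 656 normalized counts against 1280, 1431 and 1056, and changed by -0.85 (standard error 0.129, adjusted p = 0.0142). Itgb4 had 60, 105 and 80 against 36, 33 and 35, and changed by 1.18 (standard error 0.241, adjusted p = 0.0377). Itga6 remained called only without sample 1 of MC38-WT (-0.93) or sample 3 of MC38-MOCK#1 (-0.97), with -0.84 to -0.75 otherwise, and Itgb4 only without sample 1 of MC38-WT (1.38), with 0.98 or more otherwise. The mesenchymal markers Pdgfrb (2.31) and Col1a2 were higher in MC38-WT and Cdh2 (-1.25) lower, and their part in the result was not tested.

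Between MC38-COSMC KO and MC38-WT none of 9 subunits was called by limma, with 3 at an unadjusted p below 0.05, a threshold passed by 14.2% of all genes tested, and 0.581% of 21843 genes were called, 0.229% higher and 0.353% lower. These lines also differ in passage. The 3 subunits were Itga3 (-0.54, 95% confidence interval -0.86 to -0.22), Itga6 (0.35, 0.11 to 0.60) and Itgb4 (-0.99, -1.54 to -0.43), and none of them overlapped between the lines, as held for 17.3% of all genes tested. In Itgb4 the values were 40, 42 and 37 in MC38-COSMC KO against 60, 105 and 80 in MC38-WT. Itga5 was almost the same, with a difference of 0.01 (-0.28 to 0.29). Since the comparisons above share MC38-MOCK#1 or MC38-COSMC KO, their values are given side by side and are not independent of each other.

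The controls of both CRISPR systems differed in 3 of 9 subunits, 1 higher and 2 lower in MC38-MOCK#2, where 11.3% of 21667 genes were called, 5.3% higher and 6.02% lower. Itgb4 had 396, 425 and 499 normalized counts in MC38-MOCK#2 and 36, 33 and 35 in MC38-MOCK#1. Its log2 fold change of 3.62 (standard error 0.128, adjusted p = 0.000129) was 12.3-fold, the largest increase among the 10 subunits in the 8 comparisons of lines. At passage 6, the only passage that both lines share, the values were 396 and 35. The ratio of Itgb4 to Itga6 per kb was 1.07 ± 0.31 (SD, n = 3) in MC38-MOCK#2 and 0.0362 ± 0.0065 (SD, n = 3) in MC38-MOCK#1, and lay between 0.0303 and 0.155 by mean in the other 6 lines. Its 3 samples had ratios of 0.883 to 1.43, while no sample of another line was above 0.209. The antisense gene B230344G16Rik overlaps 7.66% of the Itgb4 exons and had a mean of 2.79.

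Itga6 had 571, 619 and 448 in MC38-MOCK#2, all below the lowest MC38-MOCK#1 sample, and changed by -1.20 (standard error 0.155, adjusted p = 0.00587). Itga3 had 214, 166 and 143 and changed by -1.46 (standard error 0.232, adjusted p = 0.0113). Same-numbered samples of these lines varied together, so the fit with the replicate number as a block is given beside. In it Itga3 had an adjusted p of 0.0733 and was no longer called, while Itga5 (0.44, adjusted p = 0.035) and Itgb5 (0.39, adjusted p = 0.0309) were. Itga3 remained called without sample 1 (-1.66) or 3 (-1.25) of MC38-MOCK#1 or sample 1 of MC38-MOCK#2 (-1.62), and otherwise was not (-1.48 to -1.33). Itga6 was not called without sample 1 (-1.18) or 2 (-1.10) of MC38-MOCK#1. Itgb5 was spread widely in both lines, with 1070, 1270 and 1757 against 818, 928 and 1391. Pdgfrb (2.87) and Col1a1 (1.96) were higher in MC38-MOCK#2 and Cdh2 (-1.40) lower, and the part of these mesenchymal markers in the result was not tested.

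Both other CRISPR-dCas-VPR lines were set against the same 3 samples of MC38-MOCK#2. This control had the lowest mean of the 8 lines for Itga6 and Itgb1 and the highest for Itgb4 and Itgb5. Itgb4 had 33 to 36 in MC38-MOCK#1, 37 to 42 in MC38-COSMC KO and 48 to 57 in MC38-DKO. It had 60 to 105 in MC38-WT and 95 to 100 in MC38-CMAS KO. The part of the control in the differences below was not tested. In MC38-FUT9, which had the most Fut9 RNA, Itga6 and Itgb1 were higher and Itgb4 and Itgb5 lower, 4 of 10 subunits, with 24.1% of 21480 genes called, 12.1% higher and 12% lower. Itgb4 had 52, 31 and 62 against 396, 425 and 499 and changed by -3.21 (standard error 0.251, adjusted p = 0.000491). Itgb5 had 703, 677 and 692, the lowest mean of the 8 lines, and changed by -0.95 (standard error 0.168, adjusted p = 0.00812). Itga6 had 767, 848 and 798 and changed by 0.57 (standard error 0.124, adjusted p = 0.0175). Itgb1 had 9223, 9405 and 8806 against 7486, 7353 and 7696. It was the only comparison in which Itgb1 was called, and the change was small, 0.28 (standard error 0.0609, 95% confidence interval 0.14 to 0.43, adjusted p = 0.0167). Itga5 had 1181, 1104 and 1366, the highest mean of the 8 lines.

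Same-numbered samples of MC38-FUT9 and MC38-MOCK#2 also varied together. With the block Itga5 (0.33, adjusted p = 0.0153 in place of 0.0608) and Itgb3 (-1.60, adjusted p = 0.0355 in place of 0.0912) were called as well, the latter on 0 to 6 normalized counts. Itgb4 was called whichever of the 6 libraries was left out (-3.41 to -2.93). Itgb5 was not called without sample 1 (-0.96), 2 (-0.94) or 3 (-0.95) of MC38-FUT9. Itgb1 was not called without sample 2 of MC38-MOCK#2 (0.27) or without sample 1 (0.28) or 2 (0.26) of MC38-FUT9. Itga6 was called only without sample 2 (0.67) or 3 (0.43) of MC38-MOCK#2, and otherwise was not (0.53 to 0.61).

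In the line labelled MC38-FUT4, Itga6 was higher and Itgb4 and Itgb5 lower than in MC38-MOCK#2, 3 of 9 subunits, with 16.1% of 21734 genes called, 8.1% higher and 8.04% lower. Itga6 had 1335, 1130 and 1331, all above the highest MC38-MOCK#2 sample at 619, and changed by 1.22 (standard error 0.134, adjusted p = 0.0019). Itgb4 had 32, 23 and 35 and changed by -3.84 (standard error 0.185, adjusted p = 0.000132). Itgb5 had 873, 749 and 861 and changed by -0.69 (standard error 0.176, adjusted p = 0.0398). Itga6 and Itgb4 were called whichever of the 6 libraries was left out (1.08 to 1.32 and -3.96 to -3.67), whereas Itgb5 remained called only without sample 1 of MC38-MOCK#2 (-0.85), with -0.73 to -0.50 otherwise. Samples 1 and 3 of the line labelled MC38-FUT4 share passage 7 and were the closest pair of samples in the series, though they differed by more than counting error. Averaged into 1 sample, they left Itga6 and Itgb4 called and Itgb5 at -0.73 (adjusted p = 0.124). The 43 expressed genes within 2 Mb of Itgb5 had a median change of -0.31, and with chromosome medians removed Itgb5 was at -0.42 (adjusted p = 0.0896). The epithelial marker sum was 266 to 477 here and 7 to 23 in MC38-MOCK#2, which came from Krt20 (mean of 393 against 0.3333). Of the 6 epithelial markers tested Krt20 was higher and Vil1 lower (0.3333 against 4.667), with a median of -0.10. Of 5 mesenchymal markers tested 3 were lower (Pdgfrb, -2.44, Col1a1, -2.10, and Col1a2, -1.95) and none higher. The part of these markers in the result was not tested.

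Ordered by mean, the lines were seldom separated from their neighbours. For Itga5 the ranges of neighbouring lines overlapped from MC38-FUT9 at the top down to MC38-COSMC KO, and gaps without overlap lay before MC38-MOCK#1 and before MC38-DKO. For Itga3 the only such gap lay between MC38-WT (325 to 457) and MC38-COSMC KO (250 to 270), which left MC38-MOCK#1, MC38-DKO and MC38-WT above the other 5 lines. Itga6 had gaps between MC38-CMAS KO and MC38-COSMC KO, and between MC38-WT (647 to 769) and MC38-MOCK#2 (448 to 619). For Itgb4 MC38-MOCK#2 stood apart from MC38-CMAS KO, and further gaps lay below MC38-WT and below MC38-COSMC KO. Itga1, Itgav, Itgb1 and Itgb5 had no gap between neighbours. The ratio of the highest to the lowest line mean was 14.7 for Itgb4, 3.4 for Itga3, 2.52 for Itga6, 2.44 for Itga1, 2.01 for Itga5, 1.98 for Itgb5, 1.22 for Itgb1 and 1.21 for Itgav.

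As a description over the 8 line means of log2 values, with no test, Itga3 and Itga5 ran against each other (Pearson r = -0.801, Spearman rho = -0.857, n = 8). This was the most negative value among all pairs of the subunits compared. It did not hold between harvests, where the deviations of 24 samples from their line means had r = 0.45 for this pair. The ratio of Itga3 to Itga5 per kb was 0.525 ± 0.08 (SD, n = 3) in MC38-MOCK#1 and 0.555 ± 0.015 (SD, n = 3) in MC38-DKO, 0.312 ± 0.01 (SD, n = 3) in MC38-WT, and 0.102 to 0.214 by mean in the other 5 lines. The partners Itga6 and Itgb4 had r = -0.722 and rho = -0.571 (n = 8), and without MC38-MOCK#2, the line with the lowest Itga6 and the highest Itgb4, r = -0.351 and rho = -0.357 (n = 7). Of the alpha subunits that pair with Itgb1, the values ran from r = -0.186 for Itga3 to 0.505 for Itga5 (n = 8). Within lines, Itga1 and Itgb5 had the highest correlation among all pairs of the subunits compared (r = 0.79 over 24 samples). They had their highest sample in common in MC38-WT (sample 2, with 97 and 1169), MC38-MOCK#1 (sample 3, with 151 and 1391) and MC38-MOCK#2 (sample 3, with 139 and 1757). Whether this held in the other 5 lines is not given here.

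The genes whose line means were most like those of Itga1, among 3511 that were expressed and varied between lines, were Gm5141 (r = 0.938), Mocs2 (r = 0.936) and Emb (r = 0.913), each over 8 line means. All 3 lie on chromosome 13 as Itga1 does, Mocs2 at a distance of 120 kb and Emb at 2106 kb, while Gm5141 is 52167 kb away. In MC38-CMAS KO against MC38-MOCK#1, 10 of 13 expressed genes within 2 Mb of Itga1 were lower as it was, with a median of -0.28 beside -1.25 for Itga1. For Itga3 in the same comparison, 28 of 53 neighbours were lower, with a median of -0.05 beside -1.73. Around Itgb4, 58 of 68 neighbours were higher in MC38-MOCK#2 than in MC38-MOCK#1, with a median of 0.26 beside 3.62 for Itgb4. The genes most like the other subunits lay on other chromosomes with 1 exception, Vgll3 for Itgb5, at 31866 kb. The closest were Pnma5 for Itga5 (r = 0.982), Igf2bp2 for Itga6 (r = 0.967) and Uap1l1 for Itgb4 (r = 0.96).

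Among 16 other integrin subunits, 7 had a median of at least 10. Itgb8 had 0 to 2 normalized counts in MC38-MOCK#1 and 0 to 1 in MC38-DKO, against 11 to 134 in the 6 other lines, and was higher than MC38-MOCK#1 past the threshold in MC38-COSMC KO, MC38-CMAS KO, MC38-WT and MC38-MOCK#2. Itga7, an alpha subunit that binds laminin with Itgb1, had 7 to 14 in MC38-MOCK#2 and 175 to 266 in the line labelled MC38-FUT4, a change of 4.22 (standard error 0.296, adjusted p = 0.000427). In MC38-COSMC KO against MC38-MOCK#1, 2 of 11 tested were higher (Itgb8 and Itgb2) and 2 lower (Itgb7 and Itga7), where 6.17% of all genes were higher and 5.39% lower. In MC38-DKO none of 9 was called by limma.

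The following counts can be read against the shares of all genes tested. In MC38-COSMC KO against MC38-MOCK#1, with 6.17% of all genes higher and 5.39% lower, 4 of 25 tested genes for matrix proteins that integrins bind (26 in the list) were higher and none lower, with a median of 0.33 beside 0.00 for all genes. Edil3, a ligand of Itgav receptors, changed by 2.06 (adjusted p = 0.00758). Of 40 tested genes of the adhesion complex and its signalling (41 in the list), 7 were higher and 4 lower, led by Plec (0.85), which ties Itgb4 to keratins, and Fermt2 (0.53), an activator of integrins, with Vcl (-0.50), a link of integrin adhesions to actin, lower. Of 15 membrane partners 5 were higher and 3 lower, and Lgals3, a galectin that binds the sugars of integrins, changed by 2.11 (adjusted p = 3.41e-05). In MC38-WT against MC38-MOCK#1, with 2.7% of all genes higher and 2.81% lower, limma called 4 of 22 matrix genes higher and 1 lower. It called 3 of 40 adhesion genes higher and 1 lower, and 5 of 15 membrane partners higher and none lower. Edil3 (2.97, adjusted p = 0.0142) and Lgals3 (1.47, adjusted p = 0.00271) were higher there too. Plec (0.26) and Vcl (-0.26) were not called there.

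In MC38-CMAS KO against MC38-MOCK#1, with 3.02% of all genes higher and 2.73% lower, 4 of 25 matrix genes were higher and none lower, and 5 of 40 adhesion genes were higher and 1 lower. Of 15 membrane partners 5 were higher and 1 lower. In MC38-DKO, with 0.092% of all genes called, limma called 0 of 23 matrix genes, 0 of 39 adhesion genes and 0 of 15 membrane partners. In MC38-MOCK#2 against MC38-MOCK#1, with 5.3% of all genes higher and 6.02% lower, 2 of 25 matrix genes were higher and 7 lower. There 8 of 40 adhesion genes were higher and 1 lower, and 5 of 15 membrane partners were higher and 1 lower. In the line labelled MC38-FUT4 against MC38-MOCK#2, with 8.1% of all genes higher and 8.04% lower, 6 of 25 matrix genes were higher and 4 lower. There 2 of 40 adhesion genes were higher and 9 lower, and 5 of 15 membrane partners were higher and 2 lower. In MC38-FUT9 against MC38-MOCK#2, with 12.1% of all genes higher and 12% lower, 4 of 24 matrix genes were higher and 5 lower, and 10 of 40 adhesion genes were higher and 6 lower. Of 15 membrane partners 9 were higher and 1 lower. Thbs1, a matrix protein that Itgav receptors bind, had a mean of 2 normalized counts in MC38-FUT9 against 494. The interaction, called with a positive value in 11.1% of all genes and a negative one in 11%, was positive in 0 and negative in 10 of 24 matrix genes. It was positive in 4 and negative in 10 of 40 adhesion genes, and positive in 5 and negative in 8 of 15 membrane partners.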

How the data were processed

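RNA of 24 samples of MC38 lines (8 lines, 3 harvests each) was made into stranded mRNA libraries and read on an Illumina HiSeq4000. The authors aligned the reads with HISAT2 2.0.4 to GRCm38, handled them with SAMtools 0.1.19, counted them per gene with featureCounts of Subread 1.5.0-p3, leaving out reads that fall on several genes, and scaled them with edgeR 3.18.1. Whether the counting used strand is not given in the sources used here. The deposited values are scores, namely read counts scaled per library by the authors and rounded, so no count model was used. From the step between whole reads the depth was estimated at 6760000 to 16230000 reads, 1 read being worth 0.756 to 1.67 normalized counts. Factors between 0.65 and 2.5 were searched, the lower bound having been raised after a test on simulated data failed at its edge. Depth bears on no test. Of 52636 gene identifiers, 52403 had a symbol.

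Values were raised by a pseudocount of 1, put on the log2 scale and fitted with limma 3.58.1 (R 4.3.3; moderated by a mean-variance trend) on the 6 samples of a comparison, or on 12 for the interaction. Genes with more than 4 zeros of 6, or 8 of 12, were left out. Benjamini-Hochberg adjustment ran over all genes tested and the threshold was an adjusted p of 0.05. The fit was tested on simulated data. With 3 against 3 samples an exact permutation test cannot go below 0.1, so none was used. Levels per kb used merged exon lengths. Same-numbered samples share a passage among MC38-MOCK#1, MC38-COSMC KO, MC38-CMAS KO and MC38-DKO and between MC38-MOCK#2 and MC38-FUT9. They deviated together (r over 0.1 in all 3 pairs) in MC38-MOCK#2 against MC38-MOCK#1 (0.264, 0.132 and 0.351). The same held in MC38-FUT9 against MC38-MOCK#2 (0.127, 0.324 and 0.271). The first of these pairings rests on the data alone. The counts called, the shares and the standard errors given for both comparisons come from the fit without a block. The fit with the replicate number as a block is given beside it.

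The subunits and gene lists were chosen with earlier results of these data known. All 10 subunits are named. Of other lists at most 2 called genes per direction and comparison are named, those with the largest change and no overlap between groups. The 3 genes most like a subunit were sought among those with a mean of at least 50 and an SD of line means of at least 0.25. The motifs, the neighbour windows, the ratios Itgb4 to Itga6 and Itga3 to Itga5 and the averaging of samples 1 and 3 of the line labelled MC38-FUT4 were chosen after seeing the data. Alternatives were other pseudocounts, filters, scalings, fits and left-out samples. Other tools were Python 3.11.15, numpy 2.4.6, pandas 2.3.3, scipy 1.17.1 and matplotlib 3.10.9.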

Additional observations from a re-analysis of the deposited data

Results flagged for a closer look

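The difference between lines with and without the COSMC label varied with the CMAS label for 5 subunits, by the interaction test of limma over 12 samples (adjusted over 21396 genes, 22.1% of which were called). Each combination of labels is a single line, so label and line cannot be told apart. The p-values cover the spread between harvests only. The interaction on the log2 scale was 1.94 for Itga1 (adjusted p = 0.00015), 2.48 for Itga3 (adjusted p = 4.11e-06) and 0.79 for Itga6 (adjusted p = 0.00319). Each of them was lower in MC38-COSMC KO than in MC38-MOCK#1, and higher in MC38-DKO than in MC38-CMAS KO. The interaction was -1.12 for Itga5 (adjusted p = 0.000154) and -1.10 for Itgb4 (adjusted p = 0.00416). Leaving out each of the 12 libraries gave 1.74 to 2.07 for Itga1, 2.27 to 2.67 for Itga3, 0.69 to 0.91 for Itga6 and -1.16 to -1.04 for Itgb4, and for Itga5 the values went down to -1.23 with adjusted p-values of at most 0.000804. C1galt1c1 RNA in MC38-DKO (166 to 206) overlapped with that in MC38-CMAS KO (152 to 215), and its part in the result was not tested.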

How the results depend on the processing

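The number of subunits called was the same with a pseudocount of 0.5 or 8, without the filter, with every library rescaled to the same total and with median-of-ratios scaling, in all 9 tests. In MC38-COSMC KO against MC38-MOCK#1 it was 3 and became 1 with chromosome medians removed, 0 without the trend 0 with the replicate block, and 4 with a mean of at least 10 or with all 8 lines in a single fit, where Itga5 was added (adjusted p = 0.0322 and 0.0391), and ranged from 0 to 3 as samples were left out. In MC38-WT against MC38-MOCK#1 it was 2 and became 0 without the trend, 0 with the block and 3 in the single fit with Itga5 (adjusted p = 0.0417), with 0 to 2 as samples were left out. In MC38-COSMC KO against MC38-WT it was 0 and became 1 with all 8 lines in a single fit. In MC38-CMAS KO against MC38-MOCK#1 it was 3 and became 0 with the block and 4 with a mean of at least 10 or in the single fit, again with Itga5 (adjusted p = 0.0497 and 0.0122), with 1 to 3 as samples were left out. In MC38-MOCK#2 against MC38-MOCK#1 it was 3 and became 5 with a mean of at least 10, 5 in the single fit, 4 with chromosome medians removed and 4 with the block, with 1 to 4 as samples were left out. In the line labelled MC38-FUT4 it was 3 and became 5 in the single fit and 2 without the trend, with the block or with samples 1 and 3 averaged, with 2 to 3 as samples were left out. In MC38-FUT9 it was 4 and became 2 without the trend, 5 with a mean of at least 10, with chromosome medians removed or in the single fit, and 6 with the block, with 2 to 4 as samples were left out. The interaction stayed at 5 and MC38-DKO at 0 in every setting run. The share of all genes called is not given for these settings, other than for the block below, so the counts cannot be read against it. The cause of these changes was not tested. No called value changed sign. Sign changes of values not called in either setting were not counted.

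Over all genes the block took the calls from 2563 to 4 in MC38-COSMC KO, 1192 to 0 in MC38-WT, 1268 to 1 in MC38-CMAS KO and 20 to 0 in MC38-DKO, all against MC38-MOCK#1, from 127 to 0 between MC38-COSMC KO and MC38-WT, and from 3509 to 1756 in the line labelled MC38-FUT4. At an unadjusted p below 0.05 the block left 4669, 3788, 3960, 1408, 2390 and 6144 genes. In these 6 comparisons the same-numbered samples, which share a passage in those of MC38-COSMC KO, MC38-CMAS KO and MC38-DKO with MC38-MOCK#1, did not all deviate together, with mean correlations of -0.125 to 0.0981, and at most 3 of 6 samples correlated best with their own number. In MC38-MOCK#2 against MC38-MOCK#1 the block took the calls over all genes from 2454 to 2168, while those of the subunits went from 3 to 4. In MC38-FUT9 against MC38-MOCK#2 they went from 5166 to 4963 over all genes and from 4 to 6 among the subunits. In the interaction they went from 4736 to 4851 over all genes and stayed at 5 among the subunits. Levels of a few normalized counts (Itga2, Itgb3) are at the limit of the depth. The p-values cover the spread between harvests of a line only.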
